A study of Mus musculus with 2 samples.

Results

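The 10 genes described here encode immediate early factors: the FOS family members Fos, Fosb and Fosl1, the JUN family members Jun, Junb and Jund, the zinc finger factors Egr1 and Egr2, and the immediate early response genes Ier2 and Ier3. They were taken by symbol, and each symbol matched 1 of the 28692 genes listed in both libraries. The cells came from tumours of MC38, a colon carcinoma line of the mouse, in mice of the strain C57BL/6 albino. Dissociated tumour pieces of intermediate size were embedded in collagen in a microfluidic chip and kept with 10 µg/mL of an antibody against PD-1, a receptor that restrains T cells (aPD-1, clone RMP1-14), or with 10 µg/mL of control IgG (clone 2A3). On day 6 the spheroids were released with collagenase and trypsin, sorted for tumour cells and sequenced with the 10x Chromium 3′ chemistry, with 1 library per treatment. The sources used here do not give the markers of the sort, the ages of the mice or the number of animals behind each library.

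FOS proteins pair with JUN proteins to form AP-1, a dimeric transcription factor that binds the sequence TGACTCA and its variant TGAGTCA. Growth factors, cytokines and stress signals reach these genes through MAP kinases, and their transcripts are made within minutes without new protein synthesis and decay quickly. Fosl1 (FRA-1) responds later and more lastingly than Fos in many cell types, and Jund is transcribed more steadily than Jun or Junb. Enzymatic dissociation of tissue is known to induce many of these genes, so a level measured after collagenase and trypsin can hold that handling as well as the culture.

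RefSeq promoter windows on GRCm38.p6 matched 7 of the 10 genes, and 4 are shown because results below turn on them: Fos and Egr2, which were the lowest in the aPD-1 library relative to IgG, Jun, the most abundant, and Ier3, which was higher. Each run covers 250 bases before the start site and 20 bases from it, 5′ to 3′ on the strand of the gene, and capitals mark matches to the motifs searched.
Fos, plus strand, chr12:85473640-85473909: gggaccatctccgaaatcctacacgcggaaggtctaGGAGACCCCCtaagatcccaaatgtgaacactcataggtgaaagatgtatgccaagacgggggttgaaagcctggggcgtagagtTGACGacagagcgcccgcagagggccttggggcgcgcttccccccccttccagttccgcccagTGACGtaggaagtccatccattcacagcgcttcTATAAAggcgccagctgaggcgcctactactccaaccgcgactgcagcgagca
Egr2, plus strand, chr10:67537619-67537888: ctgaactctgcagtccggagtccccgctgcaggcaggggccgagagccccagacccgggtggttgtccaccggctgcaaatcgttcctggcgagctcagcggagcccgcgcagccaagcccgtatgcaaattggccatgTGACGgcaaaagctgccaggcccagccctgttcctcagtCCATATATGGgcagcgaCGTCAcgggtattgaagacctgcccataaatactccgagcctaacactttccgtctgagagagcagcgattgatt
Jun, minus strand, chr4:95052203-95052472: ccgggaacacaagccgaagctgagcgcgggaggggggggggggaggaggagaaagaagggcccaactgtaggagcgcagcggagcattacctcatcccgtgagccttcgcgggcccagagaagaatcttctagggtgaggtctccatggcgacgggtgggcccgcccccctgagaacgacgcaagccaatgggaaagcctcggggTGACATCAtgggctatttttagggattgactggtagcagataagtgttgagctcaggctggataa
Ier3, plus strand, chr17:35821463-35821732: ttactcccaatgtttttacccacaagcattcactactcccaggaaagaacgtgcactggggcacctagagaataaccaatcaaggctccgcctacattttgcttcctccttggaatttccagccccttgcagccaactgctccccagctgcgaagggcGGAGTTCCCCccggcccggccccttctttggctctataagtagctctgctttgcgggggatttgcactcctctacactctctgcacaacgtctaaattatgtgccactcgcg

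The motifs were searched on both strands: TGACGTCA (the cAMP response element, CRE) and its core TGACG, which the longer motif contains; TGACTCA or TGAGTCA (AP-1); TGACATCA, the variant AP-1 site of the Jun promoter; GCGGGGGCG or GCGTGGGCG (EGR); and the CArG box of SRF and the NF-kB site by their consensus. TATAAA was searched on the strand of the gene. The Fos window held the CRE core at positions -129 and -66 relative to the start site and TATAAA at -33. The Egr2 window held a CArG box (CCATATATGG) at -72, a motif found in 1.63% of all 32851 windows, and the CRE core at 2 positions. The CRE core is common, at 20.8% of all windows. The Jun window held TGACATCA at -45, found in 3.62% of all windows. NF-kB consensus matches lay in the Fos and Ier3 windows, and 4.51% of all windows hold one. These matches describe the letters of the windows only.

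Cells were barcodes of at least 5000 UMIs (unique molecular identifiers, each counting 1 captured transcript) with a mitochondrial share of at most 10%. The 3356 aPD-1 cells had 16577 UMIs and 3438.5 genes at the median, and the 2198 IgG cells had 20663 UMIs and 4032 genes. Mitochondrial UMIs were 3.60% in the median aPD-1 cell and 2.92% in the median IgG cell. The deposited aPD-1 matrix lists every possible barcode and the IgG matrix only called cells, and 8 cell barcodes occur in both libraries. None of 11 epithelial markers reached 10 CPM (the UMIs of a gene over all UMIs of the summed cells, on the usual CPM scale), with Krt8 at 3 UMIs over the aPD-1 cells and 7 over the IgG cells, so the identity as tumour cells rests on the sort. The summed level of 11 fibroblast markers was 709 CPM in aPD-1 cells, against 1032 CPM in IgG cells. Most of it was Dcn (326 and 462 CPM) and Col3a1 (187 and 296 CPM in the same order). Of the 11, 7 reached 10 CPM in either library, whereas Thy1 had 1 and 0 UMIs and Lum 9 and 16. The sum of 8 endothelial markers was 20.5 CPM in aPD-1 cells and 55.9 CPM in IgG cells, of which Egfl7 gave 12.7 and 15.8 CPM. The 11 macrophage or monocyte markers summed to 12.6 CPM in aPD-1 cells, against 38 CPM in IgG cells, with none at 10 CPM. Their part in the results below was not tested unless a value is given. With 1 library per treatment there is no replicate and no test, and treatment cannot be told apart from sorting, loading or time on the bench. Intervals are 95% and cover counting error only.

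Together the 10 genes took 0.545% of all UMIs in aPD-1 cells and 0.685% in IgG cells. The median gene of at least 10 CPM stood at 31.5 CPM in aPD-1 cells, against 33.7 CPM in IgG cells. All but Fosl1 and Egr2 lay far above it, and Egr2 lay under it in aPD-1 cells. In CPM over all cells, Fos, Jun, Junb, Egr2 and Ier2 were each at least 20% lower in the aPD-1 library. Fosl1 and Ier3 were at least 25% higher in it, and Fosb, Egr1 and Jund differed by less. The counts of a 3′ library are 1 tag per molecule, so levels of different genes are set side by side in CPM without a length correction.

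Fos, the prototype partner of JUN proteins in AP-1, was at 653 CPM (interval 647 to 659) in aPD-1 cells, against 1039 CPM in IgG cells (interval 1030 to 1048). The ratio of aPD-1 over IgG was 0.628 (interval 0.620 to 0.636). Only 1.44% of 6967 genes of at least 10 CPM ranked below it by their log2 ratio. Fosb, a FOS protein with the same partners, was at 425 CPM in aPD-1 cells, against 494 CPM in IgG cells, a ratio of 0.860 (interval 0.845 to 0.875) that lay at percentile 29.5 of all genes, well inside the common range. Fosl1 encodes FRA-1, a FOS protein that lacks the C-terminal activation domain of Fos. It went the other way, at 57.1 CPM in aPD-1 cells, against 39.1 CPM in IgG cells, a ratio of 1.46 (interval 1.38 to 1.55) at percentile 99.3. The FOS family as a whole stood at 1135 CPM in aPD-1 cells, against 1573 CPM in IgG cells. Within it, Fosl1 made up 5.03% of the family's UMIs in aPD-1 and 2.49% in IgG, and Fos 57.5% and 66.1% in the same order.

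Jun, the strongest activator of its family, was the most abundant of the 10 in both libraries, at 1801 CPM (interval 1791 to 1812) in aPD-1 cells, against 2410 CPM in IgG cells (interval 2397 to 2424), a ratio of 0.747. Junb, which can restrain Jun at AP-1 sites, was at 731 CPM in aPD-1 cells, against 1036 CPM in IgG cells, a ratio of 0.705 (interval 0.696 to 0.714). Jund, often found in cells at rest, stood at 792 CPM in aPD-1 cells, against 697 CPM in IgG cells, a ratio of 1.14 (interval 1.12 to 1.15). The 3 JUN genes therefore did not move as a block: Jun and Junb lay at percentiles 8.59 and 4.84 of all genes, Jund at 89.7. Jund made up 23.8% of the JUN family's UMIs in aPD-1 and 16.8% in IgG.

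Egr1, a zinc finger factor induced by growth factors, was at 320 CPM in aPD-1 cells, against 388 CPM in IgG cells, a ratio of 0.825 (interval 0.809 to 0.842). Egr2, its relative known from myelination and from T cell tolerance, was the least abundant of the 10 genes in aPD-1 and had the lowest ratio. It stood at 25.1 CPM (interval 23.9 to 26.4) in aPD-1 cells, against 43.6 CPM in IgG cells (interval 41.7 to 45.4), a ratio of 0.576 (interval 0.539 to 0.616) at percentile 0.768. Ier2, a small nuclear protein, was at 322 CPM in aPD-1 cells, against 461 CPM in IgG cells, a ratio of 0.698. Ier3 (IEX-1), an NF-kB target that affects cell survival, was at 320 CPM (interval 316 to 325) in aPD-1 cells, against 243 CPM in IgG cells (interval 239 to 247), a ratio of 1.32 (interval 1.29 to 1.35) at percentile 98.2. Ier2 held 50.1% of the UMIs of this pair in aPD-1 and 65.5% in IgG.

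The order of levels differed between the libraries. In aPD-1 it ran Jun, Jund, Junb, Fos and Fosb, then Ier2, Ier3 and Egr1 with overlapping counting intervals, then Fosl1 and Egr2. In IgG it ran Jun, then Fos and Junb with overlapping intervals, then Jund, Fosb, Ier2, Egr1, Ier3, Egr2 and Fosl1. Jund thus stood above Junb and Fos in aPD-1 and below them in IgG, and Fosl1 stood above Egr2 in aPD-1 and below it in IgG.

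All 10 genes passed the filter of 10 CPM. At a fold of 1.5 with an interval that leaves out 1, 2 of the 10 were lower in aPD-1 (Fos and Egr2), where 3.01% of all genes were, and 0 were higher, where 0.531% of all genes were. At the milder limits of 20% lower and 25% higher, 5 were lower and 2 higher, beside 17.2% and 3.9% of all genes. None reached 2-fold, where 0.316% of all genes were lower and 0.0718% higher. The plain direction carries little, since 7 of 10 lay under a ratio of 1 and so did 67.1% of all genes. The median log2 ratio was -0.35 for the 10 genes and -0.10 for all genes. Ribosomal protein transcripts took 38% of the UMIs of aPD-1 cells and 34.3% of those of IgG cells, which lowers the CPM of other genes; with TMM scaling the median of all genes moved to 0.03 and that of the 10 genes to -0.21. On that scale Fos was at a ratio of 0.690, no longer past 1.5-fold, and Fosl1 at 1.61, past it. Jun was at 0.821 there, no longer 20% lower.

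Most cells held transcripts of most of these genes. With every cell thinned to 5000 UMIs, which left out no cell, Jun was detected in 97.5% of aPD-1 cells and 97.8% of IgG cells, a difference not detectable at this depth. Fos was detected in 79.2% of aPD-1 cells (interval 77.8 to 80.6%) and 86.4% of IgG cells (interval 84.9 to 87.8%). Ier2 was detected in 68.7% of aPD-1 cells (interval 67.1 to 70.3%) and 76.1% of IgG cells (interval 74.3 to 77.9%). Junb and Egr1 showed the same order. Egr2 was sparse, detected in 12.2% of aPD-1 cells (interval 11.1 to 13.4%) and 19.0% of IgG cells (interval 17.4 to 20.7%).

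Fosl1 was detected in 24.2% of aPD-1 cells (interval 22.8 to 25.7%) and 16.3% of IgG cells (interval 14.8 to 17.9%), and Ier3 in 48.3% (interval 46.6 to 50.04%) and 41.1% (interval 39.1 to 43.2%) in the same order. The higher levels of both in aPD-1 therefore went with more cells in which they were seen. The intervals overlapped for Fosb and Jund. Without thinning, Fosl1 was detected in 54.2% of aPD-1 and 46.4% of IgG cells, and Egr2 in 28.5% and 44.3%. No cell type that lacks these transcripts was at hand, but 2 sets of barcodes bear on free RNA. Barcodes of 1 to 100 UMIs in the aPD-1 library held on average 0.0111 UMIs of Jun and 0.00454 UMIs of Fos. An aPD-1 cell held 33 and 12 UMIs in that order. Such barcodes averaged only 8.22 UMIs in all, against 18314 in an aPD-1 cell, so these counts do not compare levels. Per UMI outside mitochondrial genes, Jun stood there at 0.769 and Fos at 0.868 of the level in aPD-1 cells. Across all the genes described here this ratio ran from 0.627 (Fosb) to 1.12 (Ier2). The IgG matrix held no such barcodes.

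**Figure D1:**
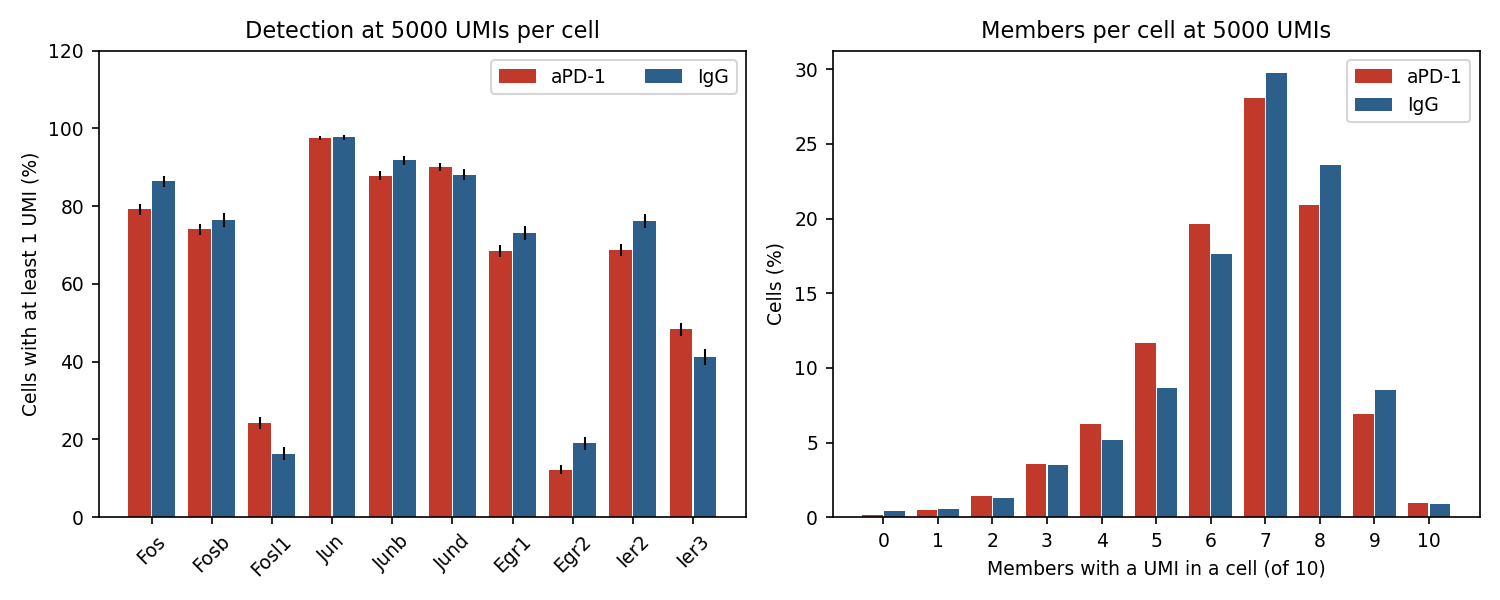
Left, percentage of cells with at least 1 UMI of each gene after thinning to 5000 UMIs per cell, aPD-1 left and IgG right of each pair, with exact 95% binomial intervals. Right, percentage of cells by the number of the 10 genes with a UMI; both libraries peak at 7 genes, and 8 or more were seen in 28.8% of aPD-1 and 33.0% of IgG cells.

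The other set was a cluster of 5 aPD-1 and 16 IgG cells led by Tex101, Tex40 and Fthl17e, with medians of 9260 and 10908.5 UMIs. Its aPD-1 cells held 3 UMIs of Jun and 2 of Fos in all, and its IgG cells 35 of Jun and 5 of Fos, which is 173 CPM of Jun and 24.7 CPM of Fos in those IgG cells against 2410 and 1039 CPM over all IgG cells. Fosl1 was at 19.8 CPM in those IgG cells, from 4 UMIs, against 39.1 CPM over all IgG cells. Egr2 had 0 UMIs in this cluster in both libraries, too few UMIs in all to place its level. Jun and Fos were thus lower in these few IgG cells than over all IgG cells, and Jun was still detected.

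The spread between cells was wide. At 5000 UMIs per cell, the 10 genes together had 26 UMIs in the median aPD-1 cell, with 10 at the 10th and 52 at the 90th percentile, and 32, 12 and 66 in IgG cells. Jun ranged in the same way from 2 over 8 to 19 UMIs in aPD-1 cells and from 3 over 11 to 25 UMIs in IgG cells. Ier3 was concentrated in few cells for its level. The 10% of cells with most Ier3 held 54.7% of its UMIs in the aPD-1 library and 59.6% in the IgG library. The same share was 37.0% and 35.4% for Ier2, 34.8% and 32.5% for Egr1, and 28.3% and 28.1% for Jun. For the sparse genes it was 84.8% and 62.9% (Egr2) and 51.8% and 67.4% (Fosl1). The median cell had 0 Ier3 UMIs in both libraries at this depth, and the 99th percentile was 13 UMIs for aPD-1 cells and 12 for IgG cells. A median of 7 of the 10 genes was seen per cell in both libraries. At least 8 were seen in 28.8% of aPD-1 cells (interval 27.3 to 30.3%) and 33.0% of IgG cells (interval 31.1 to 35%).

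Coexpression across all cells of a library split the 10 genes. Among the pairs of Fos, Fosb, Jun, Junb, Jund, Egr1, Egr2 and Ier2, a grouping made after the values were seen, Pearson r of log counts ranged from 0.09 to 0.46 in aPD-1 (3356 cells) and from 0.09 to 0.54 in IgG (2198 cells), with medians of 0.33 and 0.38 over 28 pairs. The 17 pairs with Fosl1 or Ier3 ranged from -0.07 to 0.11 in aPD-1 and from -0.03 to 0.08 in IgG. Within single clusters, described below, the split was less clean: pairs with Fosl1 or Ier3 reached 0.24 in both libraries, and pairs of the other 8 went down to 0.05 in aPD-1 and -0.01 in IgG. Fos with Ier3 had an r of 0.06 over all IgG cells and of 0.11 to 0.21 within the 6 larger clusters of IgG cells. Over all pairs of the 2298 genes of at least 50 CPM in both libraries, the median r was 0.0063 in aPD-1 and 0.0048 in IgG, and the 99th percentile 0.13 in both. Cells of a library share its handling, and r between sparse genes is held down by counting, which bears on Egr2 and Fosl1. Egr2, detected in fewer aPD-1 cells than Fosl1, had an r with the summed other 9 genes of 0.22 in aPD-1 and 0.24 in IgG. That of Fosl1 was 0.03 in aPD-1 and 0.04 in IgG.

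The tightest pair was Fos with Fosb in aPD-1 (r 0.46) and Fos with Jun in IgG (r 0.54). Fosb, Jun and Egr1 were the genes most like Fos over 2298 candidates, ranked by the lower r of the 2 libraries. Junb was most like Nfkbia, the NF-kB inhibitor gene (r 0.43 in aPD-1 and 0.49 in IgG), ahead of Fos and Ier2. Jund was most like Malat1, a nuclear long noncoding RNA (r 0.42 and 0.41). Jund with Fosb (r 0.38 and 0.39) stood above Jund with Junb (r 0.24 and 0.29). Egr1 and Egr2 were seen together in 10.5% of aPD-1 cells, where their separate shares would give 8.37% if independent, and in 17.0% of IgG cells, where they would give 13.9%.

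Ier3 was most like Hbegf, a growth factor of the EGF family (r 0.22 in aPD-1 and 0.20 in IgG), and Tnfrsf12a, the TWEAK receptor gene (r 0.19 and 0.22), then the ribosomal protein gene Rps2. Fosl1 was also most like Tnfrsf12a (r 0.16 and 0.10), a weak relation in sparse counts. Hbegf was at 108 CPM in aPD-1 cells, against 81.4 CPM in IgG cells, and Tnfrsf12a at 261 CPM in aPD-1 cells, against 184 CPM in IgG cells, so both were higher in the same library as Fosl1 and Ier3. Fosl1 with Ier3 was the highest of the 17 pairs with either gene in aPD-1, at an r of 0.11, but not in IgG, where it was at 0.07 and Ier2 with Ier3 at 0.08.

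**Figure D2:**
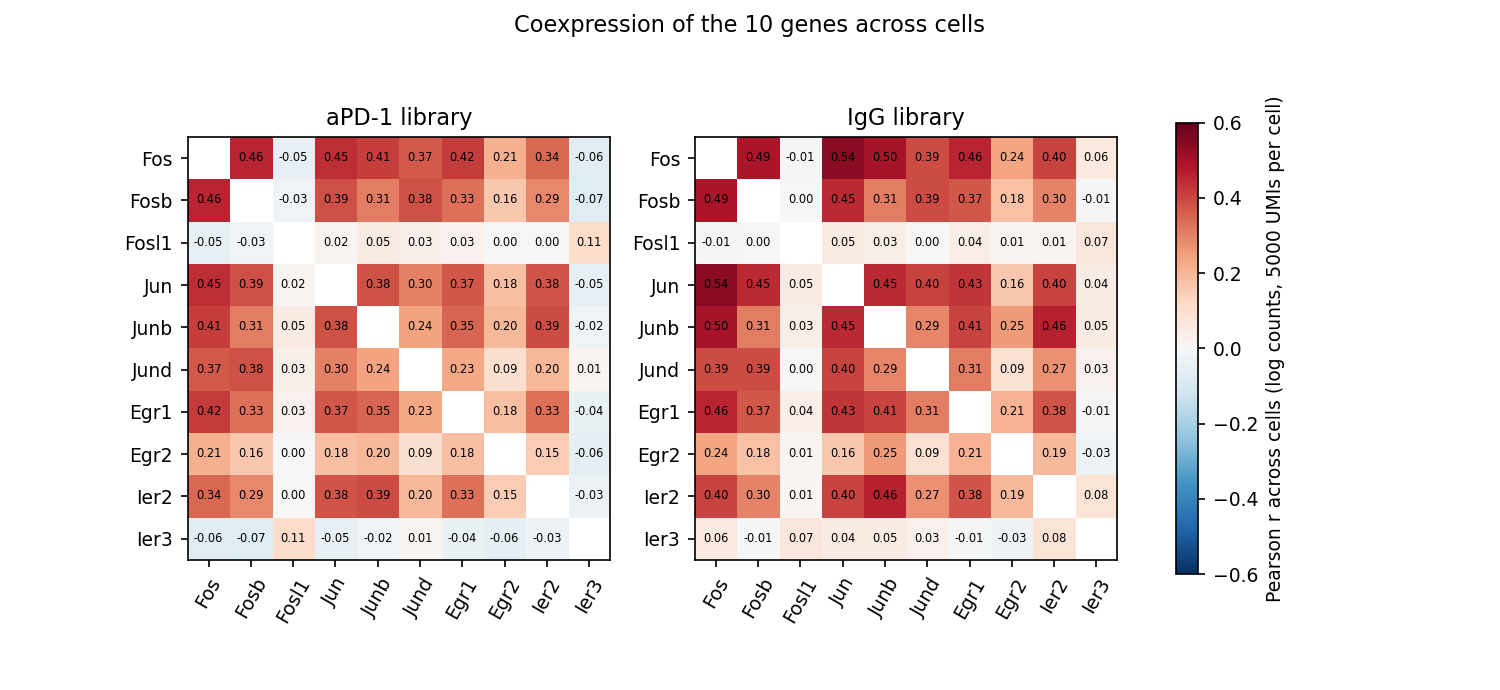
Pearson r across cells of log counts at 5000 UMIs per cell for every pair of the 10 genes, aPD-1 library left and IgG library right, red positive and blue negative. Rows and columns of Fosl1 and Ier3 are near 0 in both libraries, and the other 8 genes correlate with each other.

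Among the genes outside the 10 most like their summed count were Klf6, Dusp1, Nfkbia, Klf2, Klf4, Malat1, Rhob and Ier5, in that order of the lower r. Klf6, a Krüppel-like factor, reached an r of 0.47 in aPD-1 and 0.56 in IgG. Dusp1, a phosphatase that switches off MAP kinases, reached 0.42 and 0.47. Their levels differed between the libraries to unlike degrees: Klf6 was at 592 CPM in aPD-1 cells, against 656 CPM in IgG cells, whereas Dusp1 was at 166 CPM in aPD-1 cells, against 268 CPM in IgG cells. Klf4, another factor of the Klf6 family, was at 329.8 CPM in aPD-1 cells, against 341 CPM in IgG cells.

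Clusters of cells were made without the 10 genes and without the related lists, and 6 held at least 100 cells of each library. Cluster 0, led by Hist1h1b and Top2a, held 33.4% of aPD-1 and 14.7% of IgG cells. Cluster 1, led by Prg4, Rac2, the macrophage or monocyte marker Fcer1g and Spib, held 22.2% and 23.4%. Cluster 2, led by the hypoxia genes Car9, Ero1l and Bnip3 with metallothioneins, held 20.7% of aPD-1 and 10.2% of IgG cells. Cluster 3, led by mitosis genes such as Cdc20, held 8.70% and 17.9%, cluster 4, led by Lbp, Gsn and Dcn, 4.83% and 17.8%, and cluster 5, led by the S phase genes Rrm2 and Tyms, 7% and 11.4%. None of these met the rule for a cell type name, 3 markers of a type among the 10 top genes. In a finer clustering, whose clusters were not named, 1 cluster of 628 aPD-1 and 440 IgG cells was also led by Prg4 and Rac2. Its 10 top genes held 3 macrophage or monocyte markers, Fcer1g, C1qa and C1qb. The part of such cells in the levels of cluster 1 was not tested.

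Among these 6 clusters, to which the order of levels is limited here, Fos was highest in cluster 4 in aPD-1 cells, at 1141 CPM, and in cluster 1 in IgG cells, at 1443 CPM, and lowest in cluster 5 in both, at 441 CPM in aPD-1 cells, against 611 CPM in IgG cells. Fosb, Jund, Egr1 and Egr2 were also lowest in cluster 5 in both libraries and highest in cluster 1 in IgG. Egr2, for example, stood in cluster 5 at 12.9 CPM in aPD-1 cells, against 17.5 CPM in IgG cells, and in cluster 1 at 46.0 CPM in aPD-1 cells, against 70.3 CPM in IgG cells. Ier3 had the reverse pattern. It was highest in cluster 5, at 488 CPM in aPD-1 cells, against 430 CPM in IgG cells, and lowest in cluster 1, at 128 CPM and 130 CPM. Fosl1 was also highest of the 6 in cluster 5 in both, at 61.8 CPM in aPD-1 cells, against 49.3 CPM in IgG cells. Jun and Junb were highest of the 6 in cluster 4, where Jun stood at 2670 CPM in aPD-1 cells, against 3014 CPM in IgG cells.

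Within clusters, Fos, Fosb, Jun, Egr1, Egr2 and Ier2 were lower in aPD-1 in 6 of 6, and Fosl1 was higher in 6 of 6, each with an interval that leaves out 1. The median log2 ratio of all genes in these clusters was also under 0, from -0.06 to -0.02, and Fosb in cluster 1, at -0.07, lay next to the -0.06 of all genes there. The Fos ratio ran from 0.643 in cluster 0 to 0.827 in cluster 4, so each cluster was closer to 1 than the summed cells, which at 0.628 also hold the different cluster shares. With the 6 clusters weighted equally, the Fos ratio was 0.732. The Fosl1 ratio ran from 1.252 in cluster 5 to 1.52 in cluster 1, and the Egr2 ratio from 0.597 in cluster 4 to 0.743 in cluster 2. Junb was lower in 5 of 6 and Jund higher in 5 of 6. In the finer clustering, with 8 such clusters, Fosb was lower in 6 of 8 and Egr1 in 7 of 8. The other members of the first group and Fosl1 kept their direction in 8 of 8. Without cluster 4, whose genes include the fibroblast marker Dcn, the Fos ratio was 0.648 and the Egr2 ratio 0.598.

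Ier3 was uneven. It was higher in aPD-1 in cluster 0 (414 CPM against 315 CPM in IgG), in cluster 4 (220 against 160 CPM) and in cluster 5, and lower in cluster 3 (131 against 169 CPM). Its intervals held 1 in clusters 1 and 2. In the finer clustering Ier3 was higher in 6 of 8. The summed Ier3 ratio of 1.32 thus came with a larger share of aPD-1 cells in cluster 0, and with the clusters weighted equally it was 1.11. A cluster led by the interferon response genes Mx1 and Oasl1 held 95 aPD-1 and 61 IgG cells, too few for the count above. There Fosl1 was at 96.4 CPM in aPD-1 cells, against 48.1 CPM in IgG cells, and Egr1 at 490 CPM in aPD-1 cells, against 373 CPM in IgG cells, the other way round from its ratio in the 6 larger clusters. Jun stood there at 3416 CPM in aPD-1 cells, against 3632 CPM in IgG cells, so Jun in both libraries and Fosl1 in aPD-1 were above their levels in each of the 6.

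**Figure D3:**
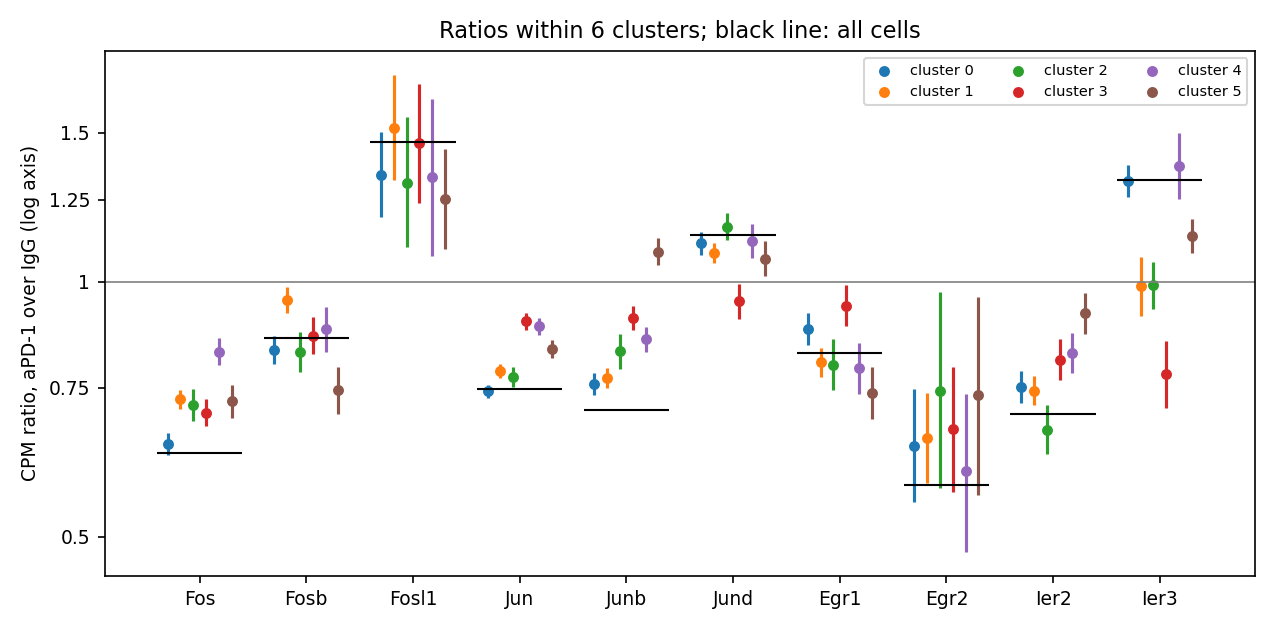
Ratio of aPD-1 over IgG on a log axis for each gene in the 6 clusters with 100 or more cells from both libraries, with 95% counting intervals; the black line is the ratio over all cells. Fos, Fosb, Jun, Egr1, Egr2 and Ier2 lie under 1 and Fosl1 above 1 in each cluster, and Ier3 lies on both sides.

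Levels also went with the UMIs of a cell. In aPD-1 cells Fos stood at 869, 763, 544 and 459 CPM in cells of 5000 to 10000, 10000 to 20000, 20000 to 40000 and at least 40000 UMIs. Ier3 went the other way, at 259, 255, 357 and 586 CPM in the same aPD-1 bins. In the IgG bins Fos stood at 1132, 1199, 1052 and 754 CPM and Ier3 at 191, 214, 229 and 341 CPM. The Fos ratio was thus 0.767, 0.637, 0.517 and 0.609 from the shallowest bin to the deepest. Within these 4 bins Fos, Fosb, Jun, Junb, Egr1, Egr2 and Ier2 were lower in aPD-1 in each, and Fosl1 and Ier3 higher in each. In the shallowest bin the intervals of Fosb, Junb, Egr1 and Egr2 held 1, with Fosb at a ratio of 0.984. In the deepest that of Fosl1 held 1, at a ratio of 1.03 over 76 aPD-1 and 172 IgG cells. Jund was at 1.26 in the shallowest bin, the only one of the 4 in which its interval lay above 1. It was at 1.01 and 1.05 with intervals that held 1 in cells of 10000 to 20000 and of at least 40000 UMIs, and at 0.974 in cells of 20000 to 40000 UMIs.

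Barcodes of at least 1000 UMIs with 10 to 50% mitochondrial UMIs, most of which also lay under 5000 UMIs, held these transcripts at higher levels than the cells. On the CPM scale over UMIs outside mitochondrial genes, the 207 such aPD-1 barcodes held Fosb at 1365, against 440 in aPD-1 cells, and Jun at 4536 against 1867. In IgG the 240 such barcodes held Fosb at 1163 against 510 in IgG cells, and Jun at 3925 against 2485. All 10 genes had higher values in these barcodes than in the cells of their own library, by 1.28-fold (Fosl1) to 3.10-fold (Fosb) in aPD-1 and by 1.14-fold (Fos) to 2.28-fold (Fosb) in IgG. Fosl1, at 1.28-fold and 1.21-fold, had 61 UMIs in these aPD-1 barcodes and 48 in the IgG ones, too few to place it clearly above cells. Barcodes over 50% mitochondrial did not share the higher values as a set, and they held few UMIs of these genes. In 159 of them in aPD-1, Fos was at 1.01, Jun at 1.10 and Fosb at 1.56 of the level in cells. Fosl1 was at 2.41, from 5 UMIs. Jund was lower there than in aPD-1 cells, at 0.486 from 14 UMIs, and so was Egr1, at 0.258 from 3 UMIs. Junb, Ier2, Ier3 and Egr2 had 17, 9, 6 and 0 UMIs, too few to place their levels against aPD-1 cells. In 569 in IgG, Fos was at 0.694, from 108 UMIs, and no gene was clearly above its level in IgG cells. With cells of up to 20% mitochondrial UMIs admitted, each of the 10 ratios kept its direction.

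The related genes show how far the pattern reached. Upstream, the kinases and SRF partners that switch these genes on were close to all genes, with a median log2 ratio of -0.01. Of 21 of at least 10 CPM, 0 passed a fold of 1.5, beside 0.531% of all genes higher and 3.01% lower. At those shares the count carries little in a list of this size. The highest was Hras, at 73.6 CPM in aPD-1 cells, against 56.4 CPM in IgG cells, and the lowest Map2k1, the MEK1 kinase gene, at 39.0 CPM in aPD-1 cells, against 49.2 CPM in IgG cells. Other AP-1 and bZIP partners had a median of -0.01, with 0 of 11 past 1.5-fold, a count that carries as little. Among them Fosl2 (FRA-2) was at 63.2 CPM in aPD-1 cells, against 54.9 CPM in IgG cells, Batf2 at 13.9 and 10.9 CPM, Atf3, a stress-induced bZIP factor, at 33.5 and 42.5 CPM, and Maf at 16.4 and 23.8 CPM in the same order.

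Other immediate early genes leaned lower, with a median log2 ratio of -0.17 and 17 of 19 under a ratio of 1, beside -0.10 and 67.1% for all genes. At 1.5-fold 1 was lower, beside 3.01% of all genes. It was Gadd45b, a stress sensor, at 59.3 CPM in aPD-1 cells, against 90.4 CPM in IgG cells. At the milder limits 7 were lower and 0 higher, beside 17.2% and 3.9% of all genes. Gadd45g was at 118 CPM in aPD-1 cells, against 165 CPM in IgG cells, and Klf10 at 13.4 CPM and 18.9 CPM. Btg1, an antiproliferative gene, was at 397 CPM in aPD-1 cells, against 345 CPM in IgG cells. Feedback inhibitors went both ways. Of 21, 1 was higher and 1 lower at 1.5-fold, beside 0.531% and 3.01% of all genes. At the milder limits 3 were higher and 3 lower, beside 3.9% and 17.2% of all genes. Dusp1 was at a ratio of 0.618, and Socs3, a cytokine feedback inhibitor, was at 80.7 CPM in aPD-1 cells, against 116 CPM in IgG cells. Dusp7, an ERK phosphatase, was at 20.9 CPM in aPD-1 cells, against 13.9 CPM in IgG cells, Dusp5 at 26.1 CPM and 18.3 CPM, and Dusp2 at 41.8 CPM and 32.0 CPM.

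Known target genes of AP-1 and EGR factors were also mixed, with a median of -0.03 over 22. Il11, an IL-6 family cytokine, was at 24.0 CPM in aPD-1 cells, against 14.2 CPM in IgG cells, a ratio of 1.69 (interval 1.54 to 1.85). Pdgfa, a growth factor, was at 268 CPM in aPD-1 cells, against 190 CPM in IgG cells, and Lif at 23.9 CPM and 17.0 CPM. Mmp9, a matrix metalloproteinase, was at 52.3 CPM in aPD-1 cells, against 82.8 CPM in IgG cells, a ratio of 0.632, and Mmp14 at 108 CPM and 154 CPM. Hmox1, haem oxygenase, was at 95.2 CPM in aPD-1 cells, against 126 CPM in IgG cells.

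Heat shock chaperones, which tissue handling also induces, were lower beside Fos and Jun. Their median log2 ratio was -0.41, and 8 of 11 were at least 20% lower in aPD-1 and 0 at least 25% higher, beside 17.2% and 3.9% of all genes. Hspa1b, an inducible HSP70, was at 30.5 CPM in aPD-1 cells, against 75 CPM in IgG cells, Dnaja1 at 237 CPM and 385 CPM, and Hsph1 at 77.3 CPM and 116 CPM. Hspe1, a mitochondrial chaperonin, was at 1688 CPM in aPD-1 cells, against 1512 CPM in IgG cells. The part of handling in the lower Fos, Jun, Junb, Egr2 and Ier2 was not tested.

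**Figure D4:**
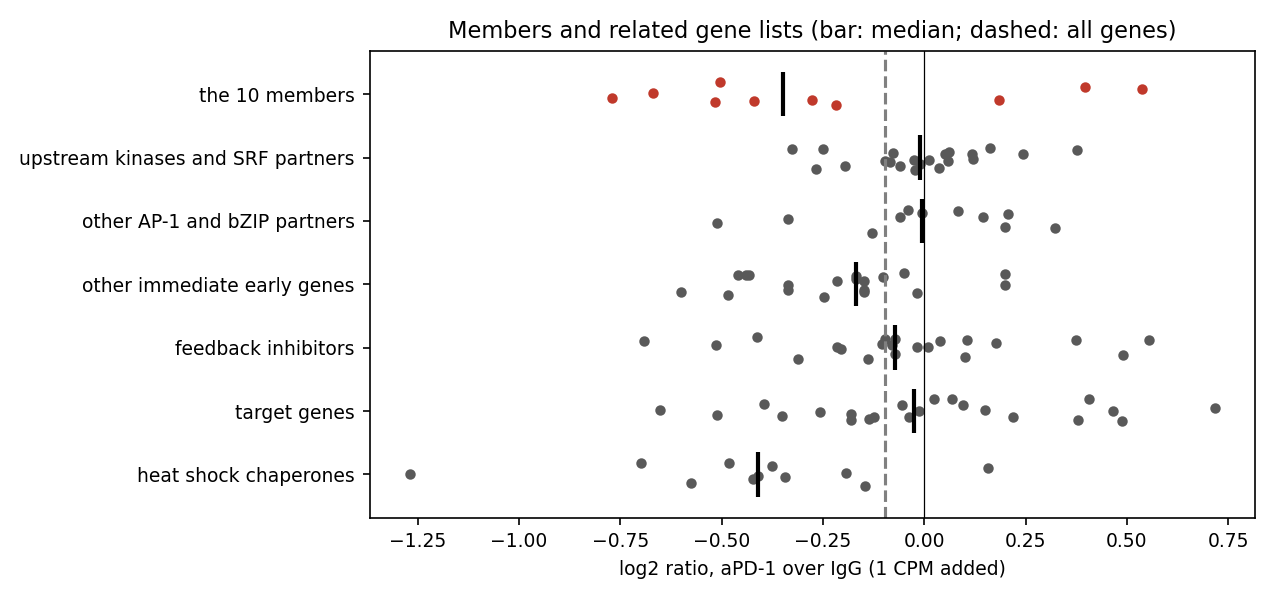
log2 ratio of aPD-1 over IgG (1 CPM added) for the genes of at least 10 CPM in each list, the 10 genes in red on top; thick bars are medians and the dashed line is the median of all genes at -0.10. The 10 genes (-0.35) and the heat shock chaperones (-0.41) have the lowest medians, and kinases, bZIP partners and target genes lie near 0.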

How the data were processed

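The deposited matrices hold raw UMI counts per gene and barcode, written by the authors with Cell Ranger 3.0.2 per the file headers. The submitters' processing notes also name Seurat 2.1.0 and the build mm10; the sources used here do not name the annotation. Libraries held 68385785 (aPD-1) and 52720076 (IgG) UMIs. UMIs were summed per library over cells of at least 5000 UMIs and at most 10% mitochondrial UMIs; doublets were not called or removed. CPM, ratios with exact conditional binomial 95% intervals, and log2 ratios with 1 CPM added were computed; ratios carry no pseudocount. A gene counted as past a fold at a mean of at least 10 CPM with an interval leaving out 1. The design could give no test across samples. Clustering used scanpy 1.11.5 and leidenalg 0.10.2 (2000 variable genes, 30 components, 15 neighbours, resolution 0.5). TMM factors came from edgeR 4.0.16. Thinning, calls and correlation were tested on simulated data. Named genes are the 10 members, up to 3 highest and 3 lowest genes of each list, and the genes most alike by r. A few that it selects are not reported here. The members and lists were chosen with earlier results of these data known. GENCODE M21 places Ccdc85b, Junos, Prdx2 and Gm11175 on the opposite strand across Fosl1, Jun, Junb and Jund; whether counting used the strand is not given, so reads of these pairs may mix.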

Additional observations from a re-analysis of the deposited data

Results flagged for a closer look

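For 3 genes the ratio of aPD-1 over IgG went opposite ways between clusters, each beyond its counting interval. The difference between clusters was not tested, since each cluster has 1 library per treatment. Ier3 was at 1.37 in cluster 4 (led by Lbp, Gsn and Dcn) and 0.778 in cluster 3 (led by mitosis genes). Junb was at 1.09 in cluster 5 (led by S phase genes) and 0.758 in cluster 0 (led by Hist1h1b and Top2a). Jund was at 1.16 in cluster 2 (led by hypoxia genes) and 0.949 in cluster 3.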

How the results depend on the processing

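Each of the 10 log2 ratios kept its direction under 16 alternative settings, of which 2, leaving out cluster 4 and weighting 6 clusters equally, were chosen after seeing the data. The widest range was that of Ier3, from 0.16 to 0.53. The cause of the shifts below was not tested beyond what each setting changes by construction.

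With TMM scaling the median log2 ratio of the 10 genes was -0.21, with 1 past 1.5-fold higher and 1 lower, beside 89 of all genes higher and 86 lower, against 37 and 210 in CPM. With the median gene ratio set to 0 these values were -0.25, 1, 1, 73 and 102. Without ribosomal and mitochondrial genes in the denominator they were -0.25, 1 and 1, with 98 of all genes higher. With clusters weighted equally they were -0.24 and 1 lower, with 13 of all genes higher and 73 lower. At limits of 25% higher and 20% lower, 2 of the 10 were higher and 5 lower, with 272 and 1200 of all genes; at 2-fold 0 of the 10 were lower, with 5 of all genes higher and 22 lower. Without a filter 225 of all genes were higher and 1342 lower, and at 50 CPM 6 and 75, with 1 of the 10 lower. The difference in the share of cells with Jun (aPD-1 minus IgG) turned to 0.279, 0.533 and 0.256 percentage points when thinned to 10000 UMIs, not thinned, and at up to 20% mitochondrial UMIs. Nearly all cells held Jun at 10000 UMIs (99.7% in aPD-1 and 99.4% in IgG) and without thinning (99.9% and 99.3%), which leaves little room for a difference. Thinned to 2000 UMIs, Jun was detected in 89.1% of aPD-1 cells (interval 88.0 to 90.2%) and 91.7% of IgG cells (interval 90.4 to 92.8%). At 10000 UMIs the median r of the 45 pairs was 0.24 in aPD-1 and 0.33 in IgG. In 4 bins of UMIs, 2 genes were higher in each, against 1 in clusters. The median of bZIP partners of at least 50 CPM was 0.17. No paired analysis was possible because each treatment has 1 library. Depth limits Egr2 and Fosl1 most.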
